A study of Mus musculus with 2 samples.

Results

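The genes described are 9 genes of nicotinamide and NAD metabolism in mouse embryonic fibroblasts (MEFs), connective tissue cells grown out of dissociated embryos. They are Nnmt, Nampt, Naprt, Nmnat1, Nmnat2, Nmnat3, Nadk, Sirt1 and Parp1, 9 of the 18194 genes with a single symbol on the Affymetrix Mouse430_2 array, and they have 17 of its 34958 probe sets with a single symbol. A probe set is a group of short oligonucleotides that reads 1 transcript or a few related ones. The genes were chosen by the measured difference of Nnmt between these same arrays, which is clearly lower in cells without Malat1, an abundant long noncoding RNA held in the nucleus. The differences of all 9 genes come from that contrast and are therefore given as a description, with no test.

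The study has 2 arrays, 1 for MEFs from wildtype mice and 1 for MEFs from Malat1 knock-out mice. Both cultures are labelled as C57BL/6, came from embryos at embryonic day 13.5, were kept in culture for 2 weeks and received no treatment. Total RNA was used. The sources used here do not state the allele that removes Malat1 or how many embryos went into each culture. With 1 array per genotype no difference has a replicate check, no p-value is given, and precision is limited by having so few arrays.

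NAD carries electrons in metabolism and is also consumed as a substrate by enzymes that release nicotinamide. Cells rebuild NAD mainly by salvage. Nampt joins nicotinamide to a phosphoribosyl group to give nicotinamide mononucleotide, Naprt does the same for nicotinic acid, and the Nmnat enzymes complete the dinucleotide. Nnmt takes nicotinamide out of this cycle by adding a methyl group from S-adenosylmethionine, and is known for high expression in liver, fat and some fibroblasts. Nadk turns NAD into NADP. Sirt1, a protein deacetylase of the nucleus, and Parp1, which builds poly(ADP-ribose) chains at DNA breaks, are both NAD users.

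All signals are log2 values as deposited, and a difference is the knock-out array minus the wildtype array. The median signal of the non-control probe sets served as each array's floor, 5.39 for the wildtype and 5.44 for the knock-out, and a probe set that reached it was taken as measured there. All 9 genes were measured on both arrays, by 13 of their 17 probe sets. Another probe set was above the floor on the wildtype array alone, and 3 were below it on both arrays. A gene is represented by its brightest probe set, the one with the highest mean of both arrays. As a check of the labels, Malat1 read 9.80 on the wildtype array and 4.53 on the knock-out array, a signal at least 20.6-fold lower against the floor. Sex-linked RNAs also separated the arrays. Xist read 4.50 on the wildtype array and 11.49 on the knock-out array, and the Y-linked gene Eif2s3y read 8.57 and 2.81. Genotype, embryo sex, culture and array therefore cannot be told apart in any value below.

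Nnmt, the methyltransferase that removes nicotinamide from salvage, was much dimmer on the knock-out array. Its only probe set read 8.83 on the wildtype array and 7.42 on the knock-out array. The difference was -1.41 on the log2 scale, a 2.65-fold lower signal, and both readings were above the floor. Of the 11295 genes measured on both arrays, 11 had a lower difference than Nnmt and 13 a larger one in absolute size. Because Nnmt has 1 probe set here, no second reading within the arrays bears on its value. In bulk RNA, fewer cells that express Nnmt and less Nnmt RNA per cell cannot be told apart.

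**Figure D1:**
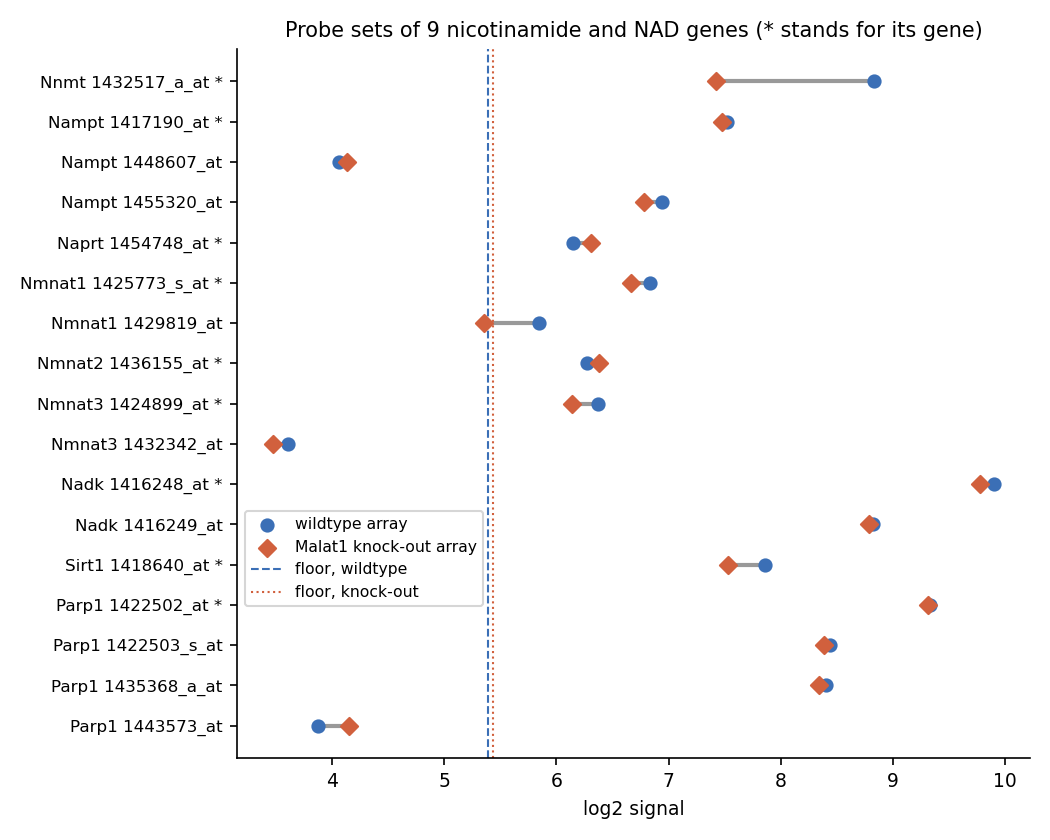
Log2 signal (horizontal axis) of each of the 17 probe sets of the 9 genes on the wildtype array (blue circles) and the Malat1 knock-out array (orange diamonds), with grey bars joining the readings and vertical lines at each array's floor. The Nnmt readings of 8.83 and 7.42 lie farthest apart, while most other pairs nearly touch.

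The entry points of salvage differed little. Nampt, which sets the pace of nicotinamide salvage, read 7.52 on the wildtype array and 7.48 on the knock-out array at its brightest probe set, a difference of -0.04. The other measured Nampt probe set gave 6.94 and 6.78, which differ by -0.16. The sign for Nampt is not settled, since its difference became 0.02, 0.08 and 0.06 under 3 other scalings of the arrays (median difference set to 0, quantile normalization and loess centring).

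Naprt, the entry point for nicotinic acid, read 6.15 on the wildtype array and 6.31 on the knock-out array, a difference of 0.15 from its only probe set. It was the member with the highest difference. It was higher by 0.08 to 0.21 in the 10 alternatives that gave a value, but only the other scalings could have turned its sign. Those gave 0.21 with the median difference set to 0, 0.21 after quantile normalization and 0.17 after loess centring. Other floors and choices of probe set could not move the value of a gene with a single probe set. Adding a constant to linear values cannot turn a sign.

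The 3 enzymes of the final step, which differ in where they work in the cell, did not share a direction. Nmnat1, the nuclear enzyme, read 6.83 and 6.66 at its brightest probe set, a difference of -0.17. Its dimmer probe set read 5.84 on the wildtype array and 5.35, just under the floor, on the knock-out array, so its ratio is only bounded. Nmnat2, best known from axons and the Golgi, read 6.28 and 6.38, a difference of 0.11. Nmnat3, assigned to mitochondria, read 6.37 and 6.14, a difference of -0.24, and its other probe set, at 3.61 and 3.48, reached the floor on neither array. These paralogs were all within 1.5-fold and their signs held under each scaling. Each of the 3, however, rests on 1 probe set measured on both arrays, at low signal. That of Nmnat1 ends in _s_at, so Nmnat1 had no value when such probe sets were left out.

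Nadk, which makes NADP from NAD, read 9.90 on the wildtype array and 9.78 on the knock-out array, a difference of -0.12. The other Nadk probe set gave 8.82 and 8.78, which differ by -0.04. Both Nadk probe sets read well above the floor, and their differences were smaller in size than 0.199. That value is the SD with which probe sets of the same gene scattered in their differences, pooled over genes. It is a scatter within these arrays and does not measure variation between cultures or arrays, so it gives no verdict on the Nadk difference.

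The NAD users also stayed within 1.5-fold. Sirt1 read 7.86 on the wildtype array and 7.53 on the knock-out array from its only probe set, a difference of -0.33 or 1.26-fold lower. After Nnmt it had the lowest difference among the 9 genes, and 9.13% of all measured genes lay lower still. Parp1 read 9.33 and 9.31, a difference of -0.02, and its other 2 measured probe sets differed by -0.05 and -0.07. The 3 Parp1 differences lay closer together than those of Nampt or Nadk, and 90.2% of measured genes had a larger absolute difference. The sign of the Parp1 difference turned positive under each of the 3 other scalings, at 0.04 to 0.06.

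Read as a list, 7 of the 9 genes were lower on the knock-out array and 2 were higher, with a median of -0.12 against -0.05 for all measured genes. Of all measured genes 59.8% were lower and 39.2% higher. Only Nnmt was at least 2-fold different, 1 of 9 genes, where 0.266% of all measured genes were at least 2-fold lower and 0.0708% at least 2-fold higher. At 1.5-fold the count was again Nnmt alone, beside 1.61% lower and 0.832% higher among all genes. Since Nnmt was the reason for the choice, these counts are given without reading anything from them. Scaling moved the balance for all genes, with the lower genes making up 78.9% of the 2-fold genes as deposited, 69.4% with the median difference set to 0, 64.7% after quantile normalization and 68.6% after loess centring. At 1.5-fold the lower genes made up 65.9%, 48.0%, 39.8% and 49.1%. Under each of the 3 other scalings 5 of the 9 genes were lower, Nampt and Parp1 having turned, while the share of all genes that was lower became 47.6% with the median difference set to 0, 44.8% after quantile normalization and 47.4% after loess centring. In the same order, 5917 of 11295, 6216 of 11297 and 5952 of 11305 genes were higher. These shares are the background for every count of lower or higher genes below.

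**Figure D2:**
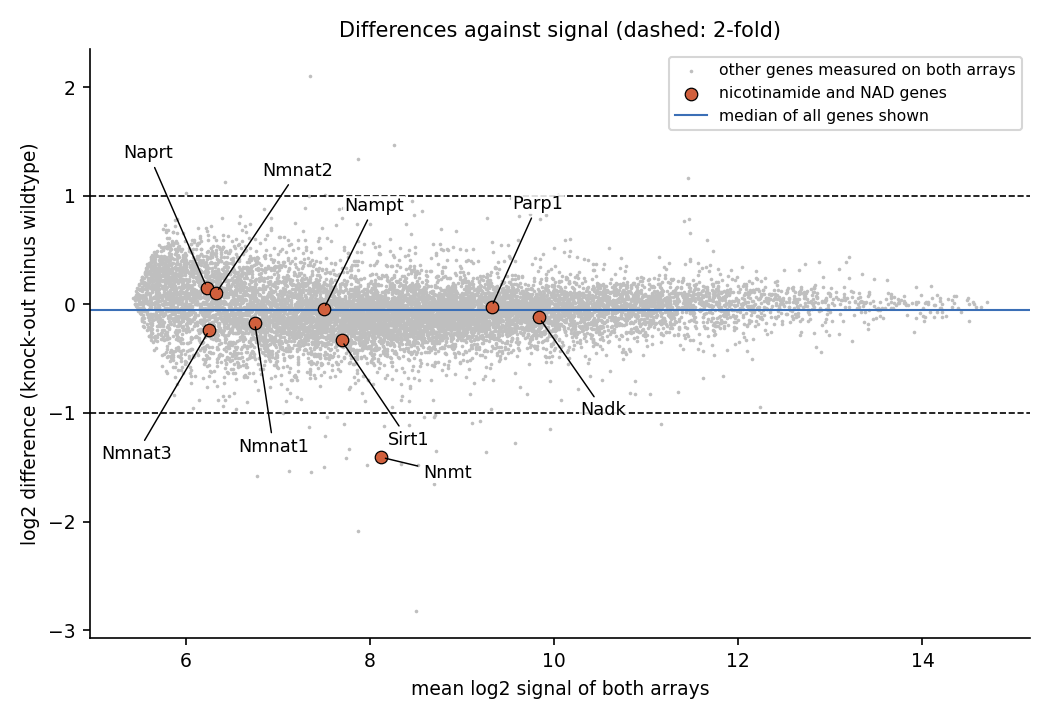
Log2 difference, knock-out minus wildtype (vertical axis), against the mean log2 signal of both arrays (horizontal axis) for the 11295 genes measured on both arrays (grey) and the 9 nicotinamide and NAD genes (orange, labelled). Nnmt at -1.41 lies below the dashed 2-fold line, and the other 8 lie between -0.33 and 0.15.

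Without Nnmt, the other 8 genes ran from -0.33 to 0.15 with a median of -0.08. As deposited, all 8 genes lay inside the range from -0.52 to 0.44 that held the central 95% of measured genes. Within the arrays, the difference of Nnmt was below that of each other member on the log2 scale, by -1.08 against Sirt1 at the least and -1.56 against Naprt at the most. The smallest of these gaps was -1.09 after quantile normalization and -1.08 after loess centring, also against Sirt1. The gap describes unequal differences within these 2 arrays and does not show that the other genes had equal RNA levels in both cultures.

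The 9 genes are spread over the genome. By the RefSeq gene table of assembly GRCm38.p6, Nnmt and Nmnat3 lie on chromosome 9, Nmnat1 and Nadk on chromosome 4, Parp1 and Nmnat2 on chromosome 1, Sirt1 on chromosome 10, Nampt on chromosome 12 and Naprt on chromosome 15. Coordinates are not given, because no source used here states the array's build. Of the 5 protein-coding genes to each side of Nnmt, 6 were measured on both arrays and none was as much as 1.5-fold different. Rexo2, an RNA exonuclease gene, differed by -0.06, Rbm7 by -0.08 and the next-door Gm5617 by 0.18. On the other side Zbtb16, a zinc finger transcription factor, differed by 0.07, the serotonin receptor gene Htr3a by 0.42 and the ubiquitin protease gene Usp28 by -0.14. Nxpe4, Nxpe2 and Htr3b reached the floor on neither array, and Gm32280 was not analysed here.

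The genes whose difference was nearest to that of Nnmt, over the 2 arrays, were Cdkn2a at -1.42, Vapb at -1.36, Ccn5 at -1.47 and Ap2b1 at -1.35. Cdkn2a encodes cell-cycle inhibitors and Ccn5 a secreted matrix-associated protein, and each has 1 probe set. The other measured probe sets of Vapb differed by -0.19 and -0.28 and that of Ap2b1 by 0.10. A likeness over 2 arrays is a single number per gene.

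The rest of the pathway was read from 8 lists with 67 listed genes, of which 58 had a probe set and 38 were measured on both arrays. Of the 38, 26 were lower on the knock-out array, 11 were higher and 1 read the same, with a median of -0.12, where 59.8% of all measured genes were lower. In the same order of scalings, 24, 22 and 23 of the 38 were lower. None reached 2-fold, and 2 genes, Nt5e and Tpmt, were at least 1.5-fold lower at their brightest probe sets, beside 1.61% of all genes. Neither stayed past 1.5-fold with the mean over measured probe sets, with the median over all probe sets or with 64 added to linear values.

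Other genes of NAD and NADP synthesis and salvage were lower in 5 of 6 measured cases, with a median of -0.31, beside 59.8% lower among all genes. Nt5e, the ectonucleotidase that splits extracellular nucleotides, read 7.29 on the wildtype array and 6.53 on the knock-out array, a difference of -0.76. Its second measured probe set read higher on the knock-out array, by 0.24, so the probe sets of Nt5e disagree. Nnt, the mitochondrial transhydrogenase that passes electrons between NADH and NADP, read 9.76 and 9.34, a difference of -0.42, and its other measured probe set differed by -0.59. Nadsyn1, which finishes NAD made from nicotinic acid, differed by -0.33, and Nmrk1, the nicotinamide riboside kinase, by -0.30. Pnp, the purine nucleoside phosphorylase, was the one higher gene, at 0.16. The count of 5 lower genes held under the 3 other scalings, with medians of -0.25, -0.28 and -0.31, but the median was -0.14 over all probe sets of each gene. With the floor raised to the 75th percentile only Nnt and Pnp, of opposite sign, stayed measured on both arrays, and their median was -0.13.

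**Figure D3:**
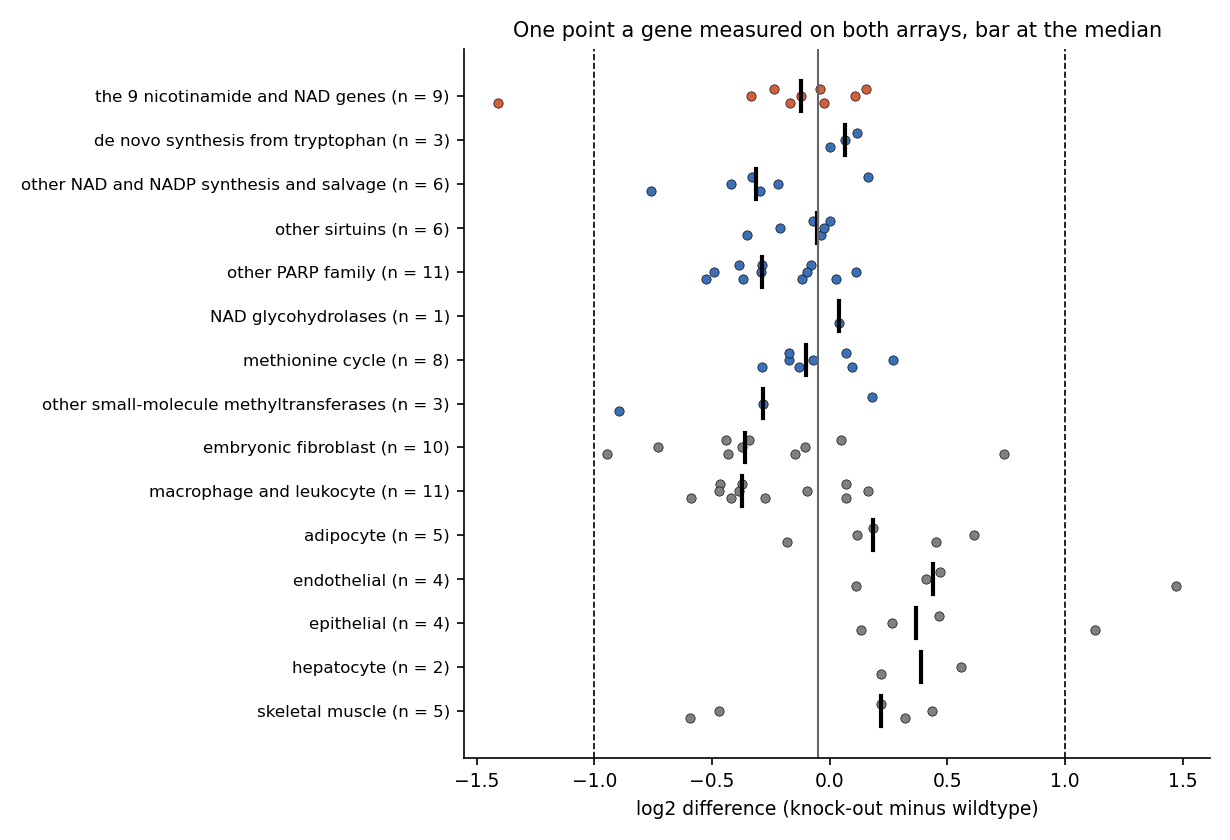
Log2 difference, knock-out minus wildtype (horizontal axis), of every gene measured on both arrays in the list of 9 genes (orange), the pathway lists (blue) and the cell type marker lists (grey), with a black bar at each list's median, dashed lines at 2-fold and a grey line at the median of all measured genes (-0.05). Apart from Nnmt at -1.41, no nicotinamide, NAD or methyl donor gene passes 2-fold.

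The route that makes NAD from tryptophan was hardly measured. Ido1, Ido2, Tdo2, Kmo and Kynu, which carry out earlier steps, were below the floor on both arrays. Of the 3 measured genes, Haao and Qprt, which lead to quinolinate and on to nicotinate mononucleotide, differed by 0.12 and 0.07, and Afmid read the same on both arrays, as 119 genes did. Their signals reached 6.04 at most and so lay close to the floor.

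The other NAD users were compared next. Of 11 measured genes of the PARP family, 9 were lower on the knock-out array, with a median of -0.29, beside 59.8% lower among all genes, and none was 1.5-fold different. Parp6 read 6.74 and 6.22, a difference of -0.52. Parp12, an interferon-inducible member, differed by -0.49, Parp9 by -0.37 and Parp3 by -0.39, with the other 2 Parp3 probe sets at -0.49 and -0.27. Tiparp, a mono-ADP-ribosyltransferase induced by dioxin, was higher by 0.11. Under the other scalings 9, 7 and 8 of the 11 stayed lower, against 47.6%, 44.8% and 47.4% of all genes, and the medians were -0.22, -0.17 and -0.18. The list median was -0.09 when each gene was represented by the median of all its probe sets, and also -0.09 once the floor was raised to the 75th percentile. At that floor Parp6, Parp9 and Parp12, among others, were no longer measured on both arrays, so this median covers fewer genes. The other 6 sirtuins had a median of -0.05, the same as all measured genes, with Sirt5 at -0.35, Sirt4 at -0.21, Sirt3 at -0.07 and Sirt6 at -0.04. The second measured Sirt5 probe set was higher on the knock-out array, by 0.17, and the sign of the sirtuin median turned under each other scaling. Among the listed enzymes that break NAD down, Sarm1 differed by 0.04 and Bst1 was below the floor on both arrays. Cd38, also on that list, had no probe set with a single symbol and was not analysed here, so Sarm1 alone was measured.

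The methyl donor side of the Nnmt reaction showed no gene past 1.5-fold. Of 8 measured methionine cycle genes 5 were lower and 3 higher, with a median of -0.10. Ahcyl2 and Ahcyl1, relatives of the enzyme that clears S-adenosylhomocysteine, differed by -0.29 and -0.17, and the other Ahcyl2 probe sets by 0.07 and 0.23. Mtr, methionine synthase, differed by -0.17, and Mtap, which recycles methylthioadenosine, by 0.27, with its other probe sets from -0.0025 to 0.12. Ahcy itself, which clears the product of every such methyl transfer, read 11.11 and 11.18.

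Nnmt was compared with other methyltransferases that act on small molecules. Inmt, its closest relative on the list, and Hnmt, Gnmt and As3mt were below the floor on both arrays. Tpmt, which methylates thiopurines, read 7.12 and 6.22 at its brightest probe set, a difference of -0.90, but its second measured probe set read 5.68 and 6.15, higher on the knock-out array by 0.46. Gamt, of creatine synthesis, differed by -0.29 and Pemt, of phosphatidylcholine synthesis, by 0.18. The oxidases Aox1, Aox3 and Aox4, a family known for oxidizing methylated nicotinamide, were below the floor on both arrays.

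Markers of the cells that a MEF culture can hold were read beside Nnmt. All 10 fibroblast markers were measured, and 8 were lower on the knock-out array, beside 59.8% of all genes, with a median of -0.36 and a mean signal of 12.12 on the wildtype and 11.85 on the knock-out array. Col1a1 at -0.95 and Pdgfra at -0.73 were lower, and Dcn at 0.74 higher, each past 1.5-fold. The second Col1a1 probe set read 12.07 and 11.74, a difference of only -0.33. In place of 3 fibroblast markers past 1.5-fold, 1 was when the median of all probe sets represented a gene. With the mean over measured probe sets 4 were. Of 11 measured macrophage and leukocyte markers 8 were lower, with a median of -0.37 and mean signals of 7.69 and 7.43, with Mrc1 at -0.59. The counts of 8 were the same under the 3 other scalings, where 44.8% to 47.6% of all genes were lower, while the macrophage median was -0.10 when the median of all probe sets represented each gene. These 2 lists lay in the same direction as Nnmt, and their part in its difference was not tested.

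Markers of liver and fat, where Nnmt is known to be high, were read as well. The hepatocyte markers Alb, Afp and Fgb did not reach the floor on either array. The 2 measured ones, Ttr and Apoa1, were higher by 0.56 and 0.22. The adipocyte markers Adipoq, Pparg, Cidec and Lep did not reach it either. Of the 5 measured adipocyte markers 4 were higher, beside 39.2% of all genes, with a median of 0.18. Their mean signals were 6.27 and 6.51. Slc2a4 differed by 0.61, at 5.51 on the wildtype array, close to the floor, and 6.12 on the knock-out array. Its other probe set was below the floor on both arrays. No adipocyte marker was past 1.5-fold after loess centring, with 16 or 64 added to linear values, or with the median over all probe sets. The remaining measured adipocyte marker, Fabp4, was lower, at 7.51 and 7.33, a difference of -0.18. Another Fabp4 probe set read 5.74 on the wildtype array and 5.30, under the floor, on the knock-out array. The part of these lists in the difference of Nnmt was not tested either. All 4 measured endothelial and all 4 measured epithelial markers were higher, beside 39.2% of all genes. Their medians were 0.44 and 0.37, led by Emcn at 1.47 and Cldn4 at 1.13. The endothelial Pecam1, Cdh5, Tek and Tie1 and the epithelial Cdh1 and Krt14 were below the floor on both arrays. Krt8 and Krt5 reached the floor on the knock-out array alone. Of 5 measured skeletal muscle markers 3 were higher, with a median of 0.22 and Mylpf at -0.60.

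**Figure D4:**
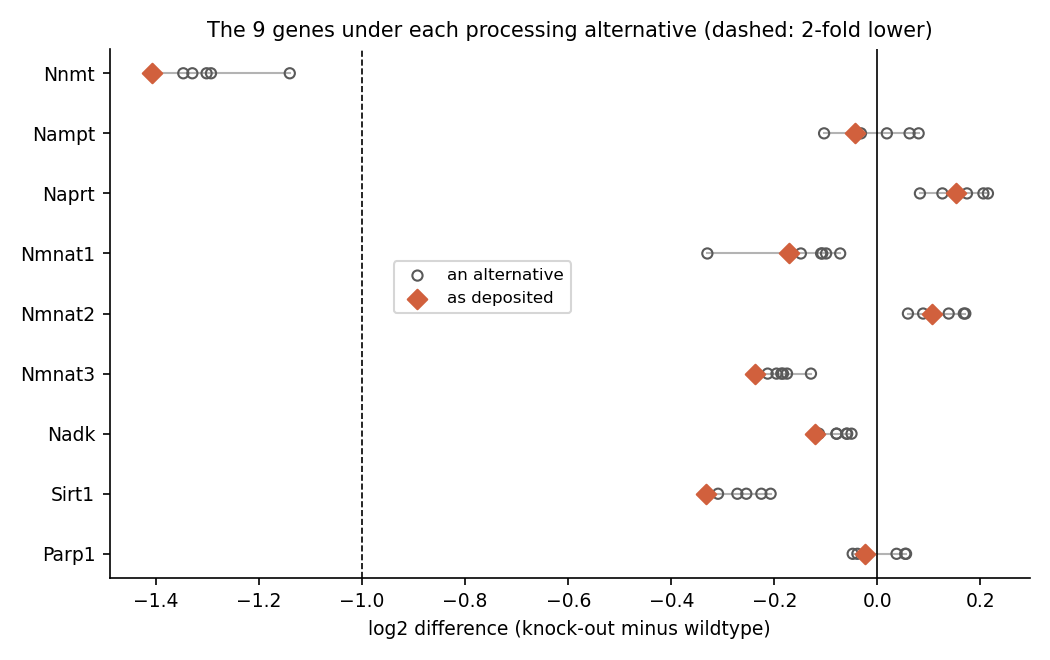
Log2 difference, knock-out minus wildtype (horizontal axis), of each of the 9 genes as deposited (orange diamonds) and under the alternatives in processing (open circles). Nnmt runs from -1.41 to -1.14, beyond the dashed 2-fold line in each that gave a value, while Nampt and Parp1 cross 0. For a gene with 1 probe set, such as Nnmt, other floors and choices of probe set cannot move the value.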

How the data were processed

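The 2 genotypes were each read on an Affymetrix Mouse430_2 array, and the labelled genotype set the groups. Input was 100 ng of total RNA, amplified and biotinylated by in vitro transcription, per the labels' protocols. The values that the authors deposited, a single one for each probe set on each array, were taken as log2 signals because they run from 2.09 to 14.71. The summarization and normalization behind these deposited log2 values are not stated in the labels.

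Symbols came from the platform annotation, and 34754 probe sets matched the RefSeq gene table of GRCm38.p6 by gene identifier. Of 128 list names, 11 had no probe set with a single symbol and are not analysed here. The brightest probe set stood for a gene. Genes counted as past a fixed size at 2-fold and 1.5-fold among those measured on both arrays.

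The genes, lists and rules were chosen with earlier results of these data known. The genes that could be named are the 9 genes, the neighbours of Nnmt, the 4 genes nearest to it in difference, and for each list the genes past 1.5-fold or the 4 with the largest difference. Other genes were named after their values were seen (Pnp, Tiparp, Ahcy, Xist, Eif2s3y, Krt8, Krt5 and genes below the floor). Cd38, which has no value here, was named as well. The 11 alternatives were 3 other scalings, the floor left out or moved to the 75th or the 40th percentile, 16 or 64 added to linear values, the mean or median over probe sets, and no probe sets ending in _x_at or _s_at. Python 3.11.15, pandas 2.3.3 and statsmodels 0.14.6 were used.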

Additional observations from a re-analysis of the deposited data

How the results depend on the processing

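No paired analysis was possible because there is a single array for either genotype. Nnmt was lower by 1.14 to 1.41 on the log2 scale in the 10 alternatives that gave a value. Because it has 1 probe set, other floors and choices of probe set could not change its difference of -1.41. Under the 3 other scalings the difference of Nnmt was -1.35, -1.29 and -1.30. It was -1.14 with 64 added to linear values, which compresses dim signals. With the floor at the 75th percentile Nnmt was measured on the wildtype array alone, at least 2.30-fold lower, so the count of the 9 genes at least 2-fold lower became 0 and that at least 1.5-fold lower also 0, and 2 of the 9 genes stayed measured on both arrays. The median of those of the 9 genes that were measured ran from -0.12 to -0.05 over the 11 alternatives. It covered only Nadk and Parp1 with the floor at the 75th percentile, and 8 genes without probe sets ending in _x_at or _s_at. Among the 9 genes, a sign turned for Nampt and Parp1, under the 3 other scalings. In all, 457 of 499 values compared moved by less than the spread between probe sets of a gene (0.199) or, for counts, by 1.5 times at most. This total includes values that could not move, such as differences of genes with 1 probe set under another floor.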
